A study of Mus musculus with 24 samples.

Results

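The genes described are 37 components of the junctions, the polarity complexes and the keratin network of epithelial cells, measured in mpkCCD cells, a cultured line derived from mouse cortical collecting duct. Members were chosen by gene symbol from a list of known claudins, other tight junction proteins, polarity proteins, adherens junction proteins, desmosomal proteins and keratins. All 37 were found among the 54432 genes of the tables, and all 37 were among the 29743 genes that held enough counts to be tested. They comprised 6 claudins, 4 other membrane proteins of the tight junction, 4 tight junction scaffolds, 5 polarity proteins, 5 adherens junction proteins, 7 desmosomal proteins, 4 keratins and 2 regulators of the epithelial state. Averaged over the 4 times, the keratin gene Krt19 was higher with dDAVP (log2 fold change 0.39 ± 0.07, SE) and the claudin gene Cldn1 lower (-0.38 ± 0.11), and both passed the test in 2 models of the counts, without and with the share of counts in sensory receptor genes, which differed between libraries. The desmoplakin gene Dsp was lower with dDAVP in the second model (-0.28 ± 0.04) and not called in the first (-0.07 ± 0.07). At 6 h, 28 members were called higher with dDAVP and 1 lower in the first model, in which 38.1% of all genes tested were called. None was called in the second (0.336% of genes), but at 6 h the share itself was lower in all dDAVP libraries. The second model therefore cannot tell dDAVP from the share at 6 h, a time that its mean effects include. Only 3 of the 37 had a higher mean TPM with dDAVP then. On TPM rescaled without Gm24245, a gene that held a large part of the total, 23 members were above 0 at 6 h and 14 below.

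Tight junctions seal the space between neighbouring epithelial cells, and their claudins set which ions may pass there. Below them, adherens junctions and desmosomes tie the cells together through cadherins, which are anchored to actin by catenins and to keratin filaments by plakins and plakophilins. The Par and Crumbs complexes mark the apical side and place the tight junction. In the collecting duct this barrier holds the salt and water gradients on which vasopressin acts, and vasopressin acts through the V2 receptor on the basolateral membrane.

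Cells of strain C57BL/6, wild type in genotype and at passage 10-11, were kept for 6 days on permeable filters, then for 24 h in minimal medium. They then received dDAVP, an analogue of vasopressin that acts on the V2 receptor, or vehicle in the basolateral chamber for 3, 6, 12 or 24 h. There were 8 groups, 1 for each treatment at each time, with 3 libraries apiece and 24 in all, made from total RNA with a full-length cDNA kit (SMART-Seq HT) and Nextera reagents. Whether replicates came from separate cultures is not stated, so a p-value here reflects only how much these libraries varied, which may be technical variation. As a model, the line stands for 1 segment of the nephron, without the other cells of the kidney.

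Libraries held 17.25 M to 27.64 M estimated counts, and the 37 members together took 1.18 to 1.30% of the counts in dDAVP libraries and 1.12 to 1.26% in vehicle libraries. Markers of collecting duct principal cells were present: their 11 genes summed to 146 to 227 TPM (a level per transcript length, scaled to the same total in each library) in dDAVP libraries and to 100.003 to 141 TPM in vehicle libraries, and 3 of the 11 averaged under 1 TPM. Of these only Aqp2, the vasopressin-regulated water channel, had a higher mean with dDAVP (72.2 TPM, against 3.01 TPM with vehicle). The mean of each of the 10 other principal cell markers was lower with dDAVP. For Gata3, the most abundant, it was 48.2 TPM with dDAVP and 48.9 TPM with vehicle. Every fibroblast, endothelial, leukocyte, proximal tubule, thick ascending limb and distal tubule, and intercalated cell marker also had a lower mean. Among podocyte markers 4 of 5 did. The 8 fibroblast markers summed to 0.777 to 3.99 TPM in dDAVP libraries and to 0.865 to 9.31 TPM in vehicle libraries, and each of the 8 averaged under 1 TPM. The endothelial list summed to 13.7 to 23.8 TPM with dDAVP and 17.3 to 26.2 TPM with vehicle, most of it from Egfl7 (16.6 TPM), and the leukocyte list to 5.49 to 14.5 TPM with dDAVP and 9.63 to 18.8 TPM with vehicle, most of it from Csf1r (8.35 TPM). Sums were also low for podocyte markers (8.40 to 12.3 TPM with dDAVP, 8.17 to 11.3 TPM with vehicle), proximal tubule markers (2.03 to 6.98 TPM with dDAVP, 3.65 to 10.4 TPM with vehicle), thick ascending limb and distal tubule markers (0.703 to 2.78 TPM with dDAVP, 0.992 to 5.79 TPM with vehicle) and intercalated cell markers (0.814 to 4.42 TPM with dDAVP, 1.43 to 6.97 TPM with vehicle). No marker of any list was at 0 in every library, and the part of other cells in the results was not tested. In RNA from whole cultures, fewer cells of a type and less RNA per cell cannot be told apart.

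The libraries differed in a measure with which the members' values moved, to a degree that depended on the scaling. Olfactory and vomeronasal receptor genes, 1962 genes known from sensory neurons, took 0.1397 to 0.527% of the counts in dDAVP libraries and 0.184 to 0.933% in vehicle libraries. By group this share was 0.387 ± 0.126% with dDAVP and 0.652 ± 0.266% with vehicle at 3 h, and 0.203 ± 0.0754% with dDAVP and 0.544 ± 0.0756% with vehicle at 6 h (SD, n = 3 libraries). It was 0.346 ± 0.0539% with dDAVP and 0.493 ± 0.295% with vehicle at 12 h, and 0.208 ± 0.0455% with dDAVP and 0.233 ± 0.0677% with vehicle at 24 h. Only at 6 h was the share lower in all dDAVP libraries than in all vehicle libraries. The treatments were then also separate in total counts (22.16 M to 27.64 M with dDAVP, 17.25 M to 20.33 M with vehicle). Genes with a count were 37193 to 42373 with dDAVP and 43700 to 44511 with vehicle. Gm24245 held 49.0 to 51.7% of TPM with dDAVP and 43.2 to 46.9% with vehicle. The part of total counts and of genes with a count in the calls was not tested. Within groups, 36 of the 37 members were lower where the receptor share was higher, by the quasi-likelihood test of edgeR (p adjusted by Benjamini-Hochberg, threshold 0.05). So were 31.3% of all genes and 69.1% of the 13123 genes whose mean reached 5 CPM in at least 1 group. CPM are counts scaled to the same library total. For this cut they were not corrected by the TMM method, and for the values of single members they were. The members' slopes lay between -0.36 (Cldn4) and -0.17 (Patj) on the log2 scale per doubling of the share, with a median of -0.24, against -0.21 for genes of at least 5 CPM and 0.37 for all genes. Cldn1, the least expressed member, was the exception with a slope of -0.18 ± 0.09 (SE, adjusted p = 0.0734). When only genes of at least 5 CPM were fitted and set the size factors, 10 of the 36 members in that fit had such a slope, all lower where the share was higher (44.7% of those genes called in either direction). Each comparison was also fitted with the share in the model, and the members called by that fit are named for each comparison. Its values are given for some members only, and where none is given the call need not have held. In the mean effect that fit called only Krt19, Cldn1 and Dsp, and at 6 h no member.

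**Figure D1:**
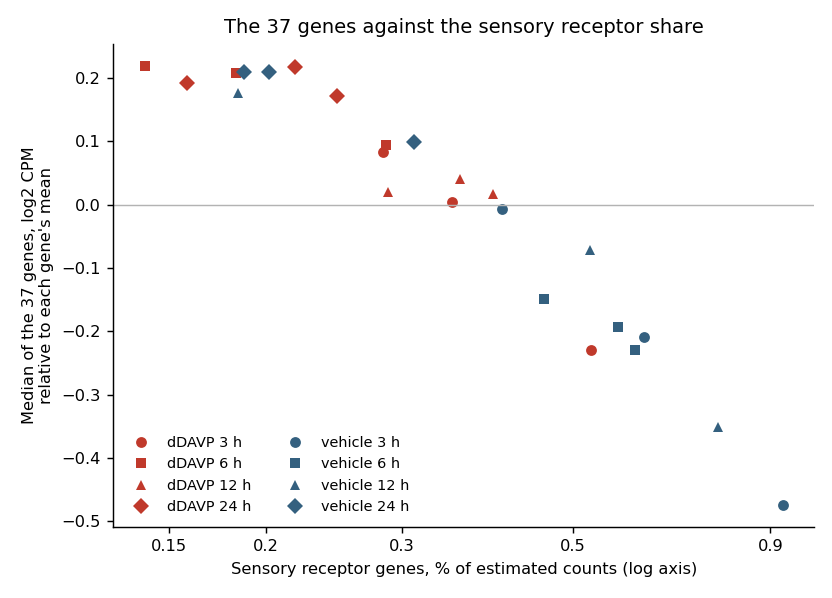
Median over the 37 genes of each library's log2 CPM relative to the gene's mean over all libraries (vertical axis), against the percentage of counts from olfactory and vomeronasal receptors (horizontal log axis). Each point is 1 library, red for dDAVP and blue for vehicle, with a shape for each time; libraries of a low share sit high, and dDAVP and vehicle libraries of a similar share lie side by side.

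By level, keratins led and Cldn1 stood last. Krt18, the type I keratin of simple epithelia, had 1030.0 ± 33.6 TPM in dDAVP libraries and 986 ± 92.5 TPM in vehicle libraries (SD, n = 12 libraries each). Its partner Krt8, the type II keratin with which it pairs into filaments, had 455 ± 32.3 TPM with dDAVP and 446 ± 44.5 TPM with vehicle. Epcam, an adhesion molecule of epithelial cells that associates with Cldn7, had 271 ± 22.0 TPM with dDAVP and 287 ± 12.6 TPM with vehicle. These levels differed between treatments by less than the larger of the 2 SDs.

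Cldn7 (252 ± 12.6 TPM with dDAVP, 262 ± 12.6 TPM with vehicle), Cdh16 (211 ± 22.7 TPM with dDAVP, 231 ± 28.8 TPM with vehicle) and Krt7 (211 ± 16.6 TPM with dDAVP, 223 ± 23.3 TPM with vehicle) followed, and their ranges over libraries overlapped one another. Cldn6, a claudin best known from embryonic epithelia, reached 176 ± 12.1 TPM with dDAVP and 182 ± 10.2 TPM with vehicle. Cldn1 had 0.507 ± 0.119 TPM with dDAVP and 0.776 ± 0.124 TPM with vehicle, from 49 to 97 counts per library. The next lowest, Dsc2, had 5.003 ± 0.644 TPM with dDAVP and 5.70 ± 0.452 TPM with vehicle, so every other member stood well above Cldn1 in every library. In the mean over all times, 3 members had a higher TPM with dDAVP than with vehicle, and these were the keratins Krt8, Krt18 and Krt19. TPM are shares of a fixed total of which 1 small RNA gene, Gm24245, held 44.2 to 51.7% in dDAVP libraries and 37.4 to 49.5% in vehicle libraries.

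**Figure D2:**
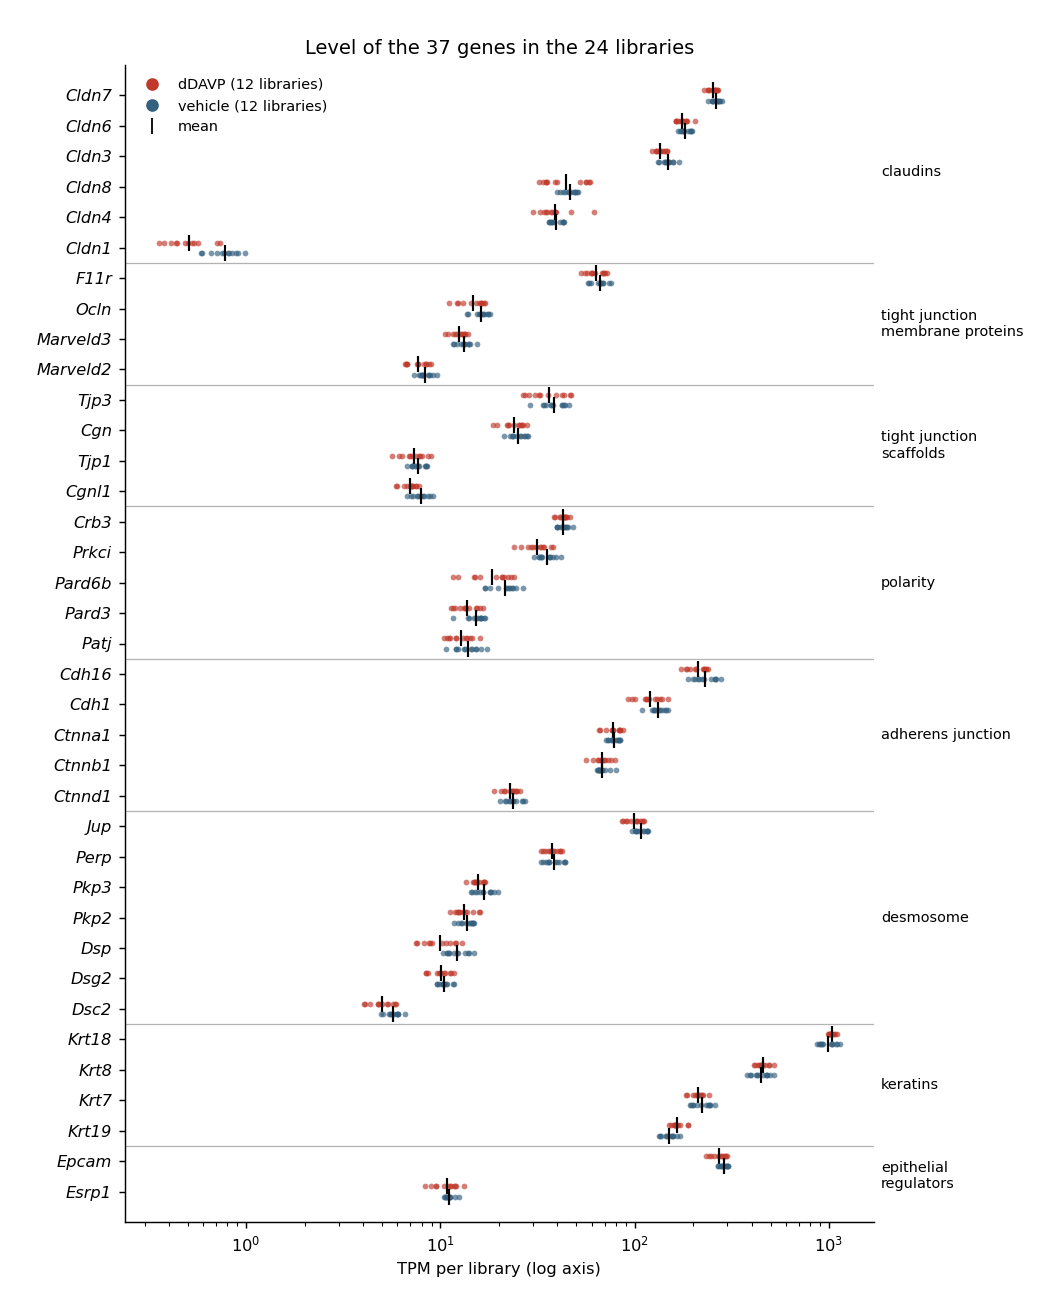
TPM of each gene in each library on a log axis, with dDAVP libraries (red) above vehicle libraries (blue) in each row and the mean of 12 libraries as a black tick. Genes are grouped by role, from Krt18 at 1030.0 TPM with dDAVP to Cldn1 at 0.507 TPM with dDAVP, and the red and blue ranges overlap for every gene.

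Promoter sequence, 250 bases before to 50 after the start of transcription, was found in RefSeq (GRCm38.p6) for 25 of the 37 members, in 35 windows. Shown here are windows of 4 members: Cldn1, the member that was lower with dDAVP in the mean effect; Cldn7, picked for its full cAMP response element; Dsp, lower with dDAVP once the receptor share was in the model; and Krt18, the most abundant member. Capitals mark the motifs found. Cldn1 lies on the minus strand at chr16:26371790-26372089, where none of the searched motifs was found.
Cldn1: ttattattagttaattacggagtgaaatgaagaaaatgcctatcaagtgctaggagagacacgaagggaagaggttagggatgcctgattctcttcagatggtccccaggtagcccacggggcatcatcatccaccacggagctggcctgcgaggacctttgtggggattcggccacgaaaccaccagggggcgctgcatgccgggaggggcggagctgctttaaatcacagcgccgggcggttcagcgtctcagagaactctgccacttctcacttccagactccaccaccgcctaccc
Cldn7 has 2 windows on the plus strand. None of the searched motifs was found in that at chr11:69964529-69964828, and that at chr11:69965171-69965470, shown here, has CACCTG at -97, CAGGTG at -57 and TGACGTCA at -38 from the start.
Cldn7: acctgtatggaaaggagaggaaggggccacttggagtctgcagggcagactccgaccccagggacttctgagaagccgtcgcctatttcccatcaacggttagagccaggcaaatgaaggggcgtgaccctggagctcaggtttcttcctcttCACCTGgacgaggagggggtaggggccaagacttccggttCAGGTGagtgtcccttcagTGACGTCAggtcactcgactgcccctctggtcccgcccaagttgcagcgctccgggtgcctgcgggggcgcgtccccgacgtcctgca
Dsp has its window on the plus strand at chr13:38151044-38151343, with CAGGTG at 4.
Dsp: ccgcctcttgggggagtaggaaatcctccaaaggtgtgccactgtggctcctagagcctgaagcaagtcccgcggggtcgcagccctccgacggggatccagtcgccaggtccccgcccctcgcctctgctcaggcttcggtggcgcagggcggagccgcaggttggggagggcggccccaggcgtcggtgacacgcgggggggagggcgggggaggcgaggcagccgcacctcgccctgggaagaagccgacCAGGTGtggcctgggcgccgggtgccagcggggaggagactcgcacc
Krt18 has its window on the plus strand at chr15:102027966-102028265, with CACCTG at -214.
Krt18: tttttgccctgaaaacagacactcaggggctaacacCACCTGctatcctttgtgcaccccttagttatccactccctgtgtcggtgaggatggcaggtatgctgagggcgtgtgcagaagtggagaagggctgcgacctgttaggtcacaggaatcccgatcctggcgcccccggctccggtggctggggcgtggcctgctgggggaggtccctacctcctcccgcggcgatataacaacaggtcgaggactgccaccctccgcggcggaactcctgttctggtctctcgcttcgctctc

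The full cAMP response element TGACGTCA stood in the windows of 2 of the 25 members, Cldn6 and Cldn7 (8%), and of 2.03% of 27025 genes. Its shorter form, TGACG on either strand, which the full element also contains, stood in those of 9 members (36%) and of 23.0% of genes. CAGGTG or its complement CACCTG, the E-box bound by Snail and Zeb factors, stood in those of 17 members (68%), among them Cldn3, Cldn4, Crb3, Ocln, Krt7 and Krt8, and of 22.6% of genes. TGACTCA or TGAGTCA, the AP-1 motif, stood in those of 3 members (Cldn4, F11r and Patj, 12%) and of 5.95% of genes, and AACCGGTT, bound by grainyhead-like factors, in none of the members' windows and in 0.174% of genes. These shares were not adjusted for base composition, and a match is a run of letters, not a bound site. Krt8 and Krt18 are neighbours 23.7 kb apart on chromosome 15, as are Cldn4 and Cldn3 (39.3 kb, chromosome 5) and Ocln and Marveld2 (43.2 kb, chromosome 13).

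On TMM-scaled counts, 28 members were higher with dDAVP at 6 h and 1, Cldn1, was lower, though only 3 had a higher mean TPM with dDAVP then. The quasi-likelihood test of edgeR, with p adjusted by Benjamini-Hochberg, called 38.1% of all genes in either direction and 46.5% of genes of at least 5 CPM higher. All 3 dDAVP libraries lay above all 3 vehicle libraries for 35 members (29.8% of genes), below them for Cldn1 (33.2% of genes), and overlapped with them for Dsp. The members' median log2 fold change at 6 h was 0.38, beside 0.32 for genes of at least 5 CPM and -0.39 for all genes, so the group stood near other genes of its level. With the share in the model, edgeR called 0 members at 6 h (0.336% of genes), and 3 had an unadjusted p under 0.05. The same model fitted to genes of at least 5 CPM, which then also set the size factors, called 1, Dsp lower (1.21% of those genes). Because the share was lower in all dDAVP libraries than in all vehicle libraries at 6 h, these fits cannot tell dDAVP from the share then. The loss of calls at 6 h therefore does not show whether dDAVP had an effect. On log2(TPM + 1), limma called Krt19 higher and 6 members lower, Cldn1, Cldn8, Cgnl1, Jup, Dsp and Epcam (21.9% of genes).

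This count also moved with the scaling of the libraries. When only genes of at least 5 CPM were fitted and set the size factors, the members' median at 6 h was 0.08, beside 0.01 for all genes in that fit. With library totals as the scale it was 0.01, beside -0.05 for genes of at least 5 CPM. On the TPM scale it was -0.13, beside -0.20, and 34 of the 37 members had a negative log2 fold change at 6 h. On TPM rescaled without Gm24245 it was 0.03, beside -0.05, with 23 members above 0 and 14 below. Median-of-ratios factors gave 0.49, beside 0.43. Leaving out 1 of the 6 libraries at 6 h also moved the calls over all genes, 11320 with all libraries. The members' count was 0 without dDAVP replicate 2 (84 of all genes called), vehicle replicate 1 (252) or vehicle replicate 2 (165). It was 1 without dDAVP replicate 1 (185 of all genes), 9 without dDAVP replicate 3 (9333) and 4 without vehicle replicate 3 (4697).

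At the other times edgeR called no member. At 3 h it called 0 (0.484% of genes), with an unadjusted p under 0.05 for 5, while DESeq2 called 0 and limma on log2(TPM + 1) called 1, Krt19 (0.454% of genes). At 12 h it called 0 (0.0773% of genes), with an unadjusted p under 0.05 for 1 and 0 calls by DESeq2 and limma. At 24 h it called 0 (0.0841% of genes), again with 1 unadjusted p under 0.05 and 0 calls by DESeq2 and limma. With the share in the model there were 2 calls at 3 h, Krt19 higher and Dsp lower (0.726% of genes), 0 at 12 h (0.296% of genes, 7 unadjusted p under 0.05) and 0 at 24 h (0.350% of genes, 6 unadjusted p under 0.05). The same model with fit and size factors from genes of at least 5 CPM called 2 members at 12 h, Krt18 higher and Dsp lower (1.52% of those genes), and Dsp lower at 24 h (1.35%).

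Non-overlapping groups were few outside 6 h. At 3 h, Krt19 alone lay above vehicle in all libraries (4.04% of genes) and Cldn1 alone below (8.06% of genes). At 12 h no member lay above (2.47% of genes), and Pard6b lay below (2.24% of genes). At 24 h, Cldn8, Tjp1, Ctnna1, Ctnnb1, Dsg2 and Krt18 lay above (4.25% of genes), and Cldn1, Cldn3, Cdh16 and Dsc2 below (5.92% of genes).

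Averaged over the 4 times, 21 members were higher with dDAVP and Cldn1 was lower on TMM-scaled counts, while only Krt8, Krt18 and Krt19 had a higher mean TPM (33.1% of genes in either direction, 37.3% of genes of at least 5 CPM higher). On log2(TPM + 1) the calls mostly had the other sign: limma called Krt18 and Krt19 higher and 13 members lower with dDAVP, among them Cldn1, Dsp, Cldn3, Cdh1 and Epcam (37.3% of genes in either direction). With the share in the model 3 members were called, Krt19 higher and Cldn1 and Dsp lower (1.22% of genes). That mean includes 6 h, where the model cannot tell dDAVP from the share. Without 1 of the 24 libraries the count lay between 2 (without vehicle 24 h replicate 3) and 30 (without vehicle 12 h replicate 2), and it was under 22 by more than 1.5 times in 20 of the 24 cases, the exceptions being vehicle 3 h replicate 3 (21), dDAVP 3 h replicate 1 (28), vehicle 12 h replicate 2 (30) and vehicle 24 h replicate 1 (16). The fits with 2 and 30 members called had 1227 and 16748 of all genes called, against 9854 with all libraries. The members' median of 0.16 stood beside 0.14 for genes of at least 5 CPM. It was 0.03 with fit and size factors from genes of at least 5 CPM, -0.01 with library totals and -0.08 on the TPM scale, beside -0.11 for genes of at least 5 CPM. On TPM rescaled without Gm24245 it was -0.01, beside -0.04, with 16 members above 0 and 21 below. The effect of dDAVP depended on time for 0 members by edgeR (0.343% of genes), with 3 unadjusted p under 0.05 and 0 calls by DESeq2 (likelihood ratio test over the 4 times) and limma, and for 0 members with the share in the model (0.256% of genes), with 2 unadjusted p under 0.05.

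**Figure D3:**
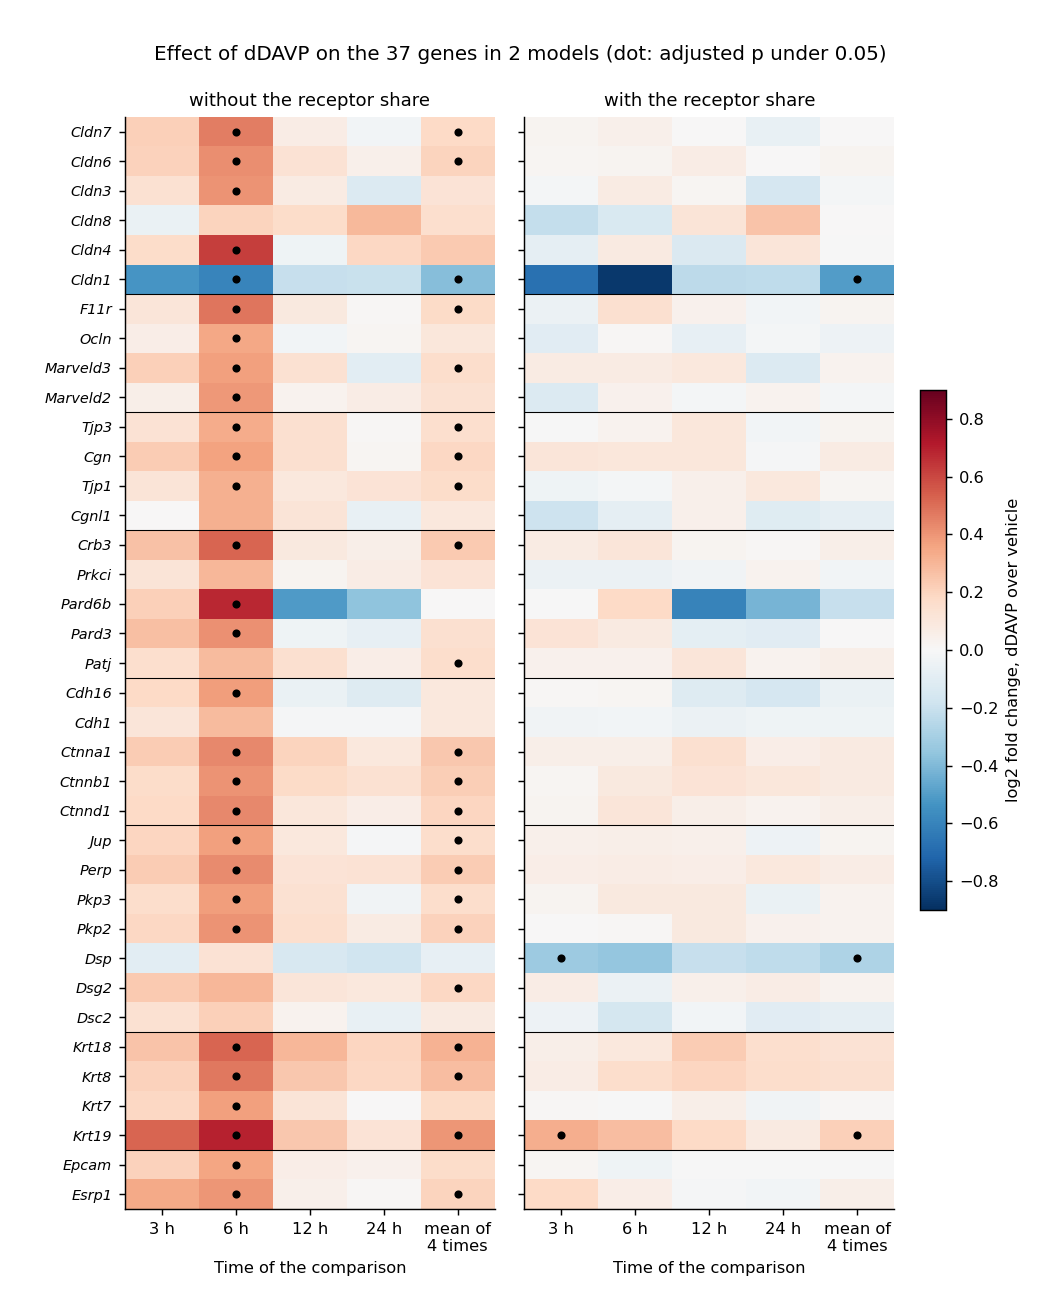
log2 fold change of dDAVP over vehicle for each gene (rows) at each time and in the mean of the 4 times (columns), from TMM-scaled counts without (left) and with (right) the receptor share in the model; red is higher with dDAVP, blue lower, and a dot marks an adjusted p under 0.05. The 29 dots at 6 h on the left (38.1% of all genes called) have no counterpart on the right, where Krt19, Dsp and Cldn1 hold the dots of the mean effect. At 6 h the share was lower in all dDAVP libraries than in all vehicle libraries, so the right side cannot tell dDAVP from the share then. The mean effect on the right includes that time. On the TPM scale 34 of the 37 genes were negative at 6 h, and 14 were on TPM rescaled without Gm24245.

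For each role below, calls at 6 h stand beside 38.1% of all genes called and 46.5% of genes of at least 5 CPM called higher. The same shares for the mean effect were 33.1% and 37.3%. Among claudins, 4 of 6 were higher at 6 h (Cldn3, Cldn4, Cldn6 and Cldn7) and Cldn1 was lower, while only Cldn4 had a higher mean TPM then. In the mean effect Cldn6 and Cldn7 were higher and Cldn1 lower, and all 6 had a lower mean TPM. Cldn1 had 2.20, 3.04 and 2.52 CPM with dDAVP and 3.71, 3.96 and 3.56 CPM with vehicle at 3 h, and 2.54, 3.11 and 2.48 CPM with dDAVP and 4.21, 3.88 and 4.16 CPM with vehicle at 6 h. All dDAVP libraries were below all vehicle libraries at 3 and 6 h. At 12 h, Cldn1 had 3.92, 3.84 and 2.96 CPM with dDAVP and 2.90, 4.92 and 4.66 CPM with vehicle, and at 24 h 3.38, 3.27 and 3.27 CPM with dDAVP and 3.55, 3.88 and 3.96 CPM with vehicle. The groups overlapped at 12 h and were separate again at 24 h, dDAVP below. Cldn1, a sealing claudin, fell in the mean effect (log2 fold change -0.38 ± 0.11, adjusted p = 0.0205) and, with the share in the model, -0.50 ± 0.10, adjusted p = 0.00536. It was negative under every scaling tried (-0.54 to -0.24) but missed the threshold with median-of-ratios factors, with DESeq2 and without the filter on low counts. Its fall at 6 h (log2 fold change -0.60 ± 0.21, adjusted p = 0.0353) missed the threshold in each of the 6 fits that left out a library and with the share in the model (-0.87 ± 0.21, adjusted p = 0.0833).

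Cldn7, a claudin of the collecting duct that is also found along the lateral membrane, was the most abundant claudin. Cldn7 had 363, 446 and 434 CPM with dDAVP and 289, 356 and 425 CPM with vehicle at 3 h, and 532, 551 and 496 CPM with dDAVP and 377, 372 and 398 CPM with vehicle at 6 h. Groups overlapped at 3 h, and dDAVP was above vehicle at 6 h. At 12 h, Cldn7 had 404, 407 and 419.9 CPM with dDAVP and 324, 484 and 369 CPM with vehicle, and at 24 h 478, 501 and 475 CPM with dDAVP and 514, 511 and 456 CPM with vehicle. They overlapped at both later times. Cldn7 rose at 6 h (log2 fold change 0.46 ± 0.14, adjusted p = 0.0208) and in the mean effect (log2 fold change 0.18 ± 0.07, adjusted p = 0.0469), while its mean TPM was lower with dDAVP at 6 h and its mean effect was -0.05 on the TPM scale and 0.00 with the share in the model.

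Cldn8, a barrier claudin of the distal nephron that works with Cldn4 in the chloride permeability of mouse collecting duct cells, was the claudin not called at 6 h, and it was not called in the mean effect. Cldn8 had 116, 135 and 154 CPM with dDAVP and 113, 147 and 162 CPM with vehicle at 3 h, and 163, 169 and 159.6 CPM with dDAVP and 139.7, 142 and 146 CPM with vehicle at 6 h. The groups overlapped at 3 h, and dDAVP was above vehicle at 6 h. At 12 h, Cldn8 had 212, 211 and 169 CPM with dDAVP and 137, 208 and 183 CPM with vehicle, and at 24 h 216, 248 and 234 CPM with dDAVP and 203, 185 and 181 CPM with vehicle. The dDAVP libraries were all above vehicle at 24 h, though the difference at 24 h did not pass the test (log2 fold change 0.29 ± 0.14, adjusted p = 1). Its level at 24 h against 3 h rose in dDAVP cells, as described below. Of the other claudins, Cldn3 (log2 fold change 0.40 ± 0.13, adjusted p = 0.0242), Cldn4 (log2 fold change 0.62 ± 0.19, adjusted p = 0.0228) and Cldn6 (log2 fold change 0.42 ± 0.14, adjusted p = 0.0259) rose at 6 h, while of the 3 only Cldn4 had a higher mean TPM with dDAVP, and with the share in the model the values were 0.07, 0.08 and 0.02.

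The membrane proteins of the tight junction besides claudins were all higher at 6 h, 4 of 4, where 46.5% of genes of at least 5 CPM were. Marveld3 and F11r were higher in the mean effect (37.3% of such genes), with a lower mean TPM for all 4 at 6 h and over all times. F11r, the junctional adhesion molecule JAM-A, was the most abundant of them. F11r had 194, 243 and 241 CPM with dDAVP and 179, 209.8 and 238 CPM with vehicle at 3 h, and 306, 289.5 and 281 CPM with dDAVP and 206, 199 and 222 CPM with vehicle at 6 h. The groups overlapped at 3 h and were separate at 6 h, dDAVP above. At 12 h, F11r had 268, 267 and 273 CPM with dDAVP and 210.4, 298 and 251 CPM with vehicle, and at 24 h 308, 321 and 302 CPM with dDAVP and 323, 318 and 285 CPM with vehicle. They overlapped at 12 and 24 h. F11r rose at 6 h (log2 fold change 0.48 ± 0.12, adjusted p = 0.0175) and by a small step in the mean effect (log2 fold change 0.17 ± 0.06, adjusted p = 0.0363), which was -0.07 on the TPM scale and 0.02 with the share in the model.

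Marveld2, tricellulin, which seals the corners where cells meet, was the lowest of the 4. Marveld2 had 30.0, 42.4 and 39.7 CPM with dDAVP and 31.8, 35.9 and 40.4 CPM with vehicle at 3 h, and 46.3, 46.2 and 42.6 CPM with dDAVP and 35.1, 33.2 and 34.8 CPM with vehicle at 6 h. Groups were separate only at 6 h. At 12 h, Marveld2 had 42.5, 37.7 and 37.7 CPM with dDAVP and 31.3, 45.4 and 38.7 CPM with vehicle, and at 24 h 47.9, 49.3 and 46.8 CPM with dDAVP and 46.8, 47.8 and 42.7 CPM with vehicle. Marveld2 (log2 fold change 0.39 ± 0.13, adjusted p = 0.0259), Marveld3 (log2 fold change 0.37 ± 0.11, adjusted p = 0.0223) and Ocln, the MARVEL protein occludin (log2 fold change 0.35 ± 0.13, adjusted p = 0.0413), rose at 6 h, with a lower mean TPM for each, and with the share in the model these values were 0.04, 0.07 and 0.01.

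Of the scaffolds beneath the tight junction membrane, Tjp1 (ZO-1), Tjp3 (ZO-3) and Cgn (cingulin, which links the junction to actomyosin) were higher at 6 h and in the mean effect, and Cgnl1 (paracingulin) was not called in either, with a lower mean TPM for all 4 in both. Tjp3 had 93.9, 107 and 108 CPM with dDAVP and 77.1, 98.9 and 106 CPM with vehicle at 3 h, and 116, 132 and 117 CPM with dDAVP and 100.03, 96.4 and 94.1 CPM with vehicle at 6 h. Groups overlapped at 3 h and were separate at 6 h. At 12 h, Tjp3 had 150.2, 151 and 153 CPM with dDAVP and 112, 160.2 and 139 CPM with vehicle, and at 24 h 160.0, 146 and 153 CPM with dDAVP and 155, 150.3 and 151 CPM with vehicle. They overlapped from 12 h on, and all of these later values were above those of 3 h. Tjp3 rose with dDAVP in the mean effect by 0.15 ± 0.06 (adjusted p = 0.0471), and this value was -0.11 on the TPM scale.

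Cgnl1 had 55.3, 71.0 and 70.4 CPM with dDAVP and 55.0, 64.0 and 76.9 CPM with vehicle at 3 h, and 85.1, 81.0 and 74.2 CPM with dDAVP and 62.9, 62.8 and 66.8 CPM with vehicle at 6 h. Groups were separate at 6 h alone. At 12 h, Cgnl1 had 71.5, 68.9 and 86.04 CPM with dDAVP and 58.4, 84.7 and 66.1 CPM with vehicle, and at 24 h 77.1, 85.0 and 81.0 CPM with dDAVP and 87.5, 85.6 and 81.6 CPM with vehicle. Cgnl1 did not pass the test in the mean effect (log2 fold change 0.09 ± 0.07, adjusted p = 0.241), and on the TPM scale limma called it lower (-0.17, adjusted p = 0.0187). Cgn had the largest mean effect among the scaffolds (log2 fold change 0.19 ± 0.05, adjusted p = 0.0227), against 0.08 with the share in the model.

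Of the 5 polarity genes, Pard3, Pard6b and Crb3 were higher at 6 h, Patj and Crb3 in the mean effect, while only Pard6b at 6 h had a higher mean TPM. Prkci, the atypical protein kinase C of the Par complex, was called in neither (log2 fold change 0.30 ± 0.13, adjusted p = 0.0743 at 6 h). Pard6b had 103, 134 and 119.7 CPM with dDAVP and 63.0, 108 and 137 CPM with vehicle at 3 h, and 155, 151 and 149.7 CPM with dDAVP and 106, 86.9 and 91.6 CPM with vehicle at 6 h. Pard6b encodes the adaptor that joins this kinase to Cdc42, and its groups overlapped widely at 3 h and were separate at 6 h, dDAVP above. At 12 h, Pard6b had 81.2, 67.1 and 96.1 CPM with dDAVP and 102, 142 and 105 CPM with vehicle, and at 24 h 147, 106 and 71.9 CPM with dDAVP and 142, 147 and 129 CPM with vehicle. At 12 h all dDAVP libraries were below all vehicle libraries, and at 24 h 1 dDAVP library lay within the vehicle range and the others below it.

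Pard6b thus had a log2 fold change of 0.68 ± 0.22 at 6 h (adjusted p = 0.0254) and -0.51 ± 0.22 at 12 h (adjusted p = 0.917). The test of dependence on time gave an adjusted p of 0.196, with an unadjusted p under 0.05, and the mean effect was 0.00 ± 0.11. With the share in the model the values were 0.18 at 6 h and -0.60 at 12 h, neither called.

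Pard3 is the scaffold that brings this complex to the junction. Pard3 had 92.5, 109.8 and 103 CPM with dDAVP and 69.9, 84.2 and 98.2 CPM with vehicle at 3 h, and 120.1, 113 and 105 CPM with dDAVP and 90.5, 82.1 and 81.9 CPM with vehicle at 6 h. Groups overlapped at 3 h by 1 vehicle library, and dDAVP was above at 6 h. At 12 h, Pard3 had 93.5, 86.6 and 101 CPM with dDAVP and 81.6, 114 and 92.7 CPM with vehicle, and at 24 h 113, 96.8 and 98.1 CPM with dDAVP and 112, 111 and 102 CPM with vehicle. The order was mixed later. Pard3 rose at 6 h (log2 fold change 0.41 ± 0.12, adjusted p = 0.0221) with a lower mean TPM, and its mean effect did not pass (log2 fold change 0.14 ± 0.06, adjusted p = 0.0707).

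Crb3, the apical membrane protein of the Crumbs complex, was the most abundant polarity member. Crb3 had 50.6, 62.4 and 59.1 CPM with dDAVP and 39.7, 47.8 and 55.7 CPM with vehicle at 3 h, and 66.9, 75.0 and 65.6 CPM with dDAVP and 45.7, 47.9 and 50.9 CPM with vehicle at 6 h. Its dDAVP libraries were above vehicle at 6 h. At 12 h, Crb3 had 53.2, 54.3 and 58.4 CPM with dDAVP and 41.2, 62.6 and 52.0 CPM with vehicle, and at 24 h 64.3, 67.3 and 63.6 CPM with dDAVP and 61.6, 69.7 and 57.0 CPM with vehicle. Crb3 rose at 6 h (log2 fold change 0.52 ± 0.13, adjusted p = 0.0175) and in the mean effect (log2 fold change 0.23 ± 0.07, adjusted p = 0.0211), which was -0.01 on the TPM scale and 0.06 with the share in the model. Patj, a scaffold of the same complex, was the least abundant by length. Patj had 78.0, 88.4 and 84.1 CPM with dDAVP and 63.8, 75.9 and 85.7 CPM with vehicle at 3 h, and 97.1, 91.3 and 89.4 CPM with dDAVP and 81.4, 70.1 and 76.1 CPM with vehicle at 6 h. Groups were separate at 6 h. At 12 h, Patj had 95.9, 92.9 and 89.5 CPM with dDAVP and 68.2, 96.1 and 87.1 CPM with vehicle, and at 24 h 115, 100.2 and 107 CPM with dDAVP and 108, 98.4 and 103 CPM with vehicle. The mean effect of Patj was 0.16 ± 0.06 (adjusted p = 0.0386), and -0.12 on the TPM scale.

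In the adherens junction, Cdh16, Ctnna1, Ctnnb1 and Ctnnd1 were higher at 6 h, and the 3 catenins in the mean effect, with a lower mean TPM for all 5 members in both. Cdh1, E-cadherin, the core cadherin of epithelia, was called in neither (log2 fold change 0.29 ± 0.14, adjusted p = 0.0927 at 6 h, log2 fold change 0.10 ± 0.07, adjusted p = 0.253 in the mean effect). Cdh16, the kidney-specific cadherin, was the most abundant. Cdh16 had 613, 689 and 699.7 CPM with dDAVP and 498, 612 and 662 CPM with vehicle at 3 h, and 740.5, 826 and 692 CPM with dDAVP and 592, 566 and 578 CPM with vehicle at 6 h. Groups were separate at 6 h, dDAVP above. At 12 h, Cdh16 had 747, 787 and 829 CPM with dDAVP and 634, 963 and 868 CPM with vehicle, and at 24 h 887, 927 and 889 CPM with dDAVP and 1023, 969.5 and 932 CPM with vehicle. At 24 h they were separate with dDAVP below. Cdh16 rose at 6 h (log2 fold change 0.38 ± 0.13, adjusted p = 0.0336) with a lower mean TPM, and at 24 h the value was -0.11 ± 0.13.

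Ctnnb1, β-catenin, links cadherins to α-catenin and is also the effector of Wnt signalling. Ctnnb1 had 238, 294 and 285 CPM with dDAVP and 211, 244 and 271 CPM with vehicle at 3 h, and 337, 324 and 308 CPM with dDAVP and 232, 240.0 and 260.1 CPM with vehicle at 6 h. Groups overlapped at 3 h and were separate at 6 h. At 12 h, Ctnnb1 had 293, 294 and 291 CPM with dDAVP and 216, 309.7 and 254 CPM with vehicle, and at 24 h 342, 332 and 343 CPM with dDAVP and 314, 315 and 296 CPM with vehicle. The dDAVP libraries were again above vehicle at 24 h. Ctnnb1 rose in the mean effect (log2 fold change 0.22 ± 0.06, adjusted p = 0.0199), as did Ctnna1, α-catenin (log2 fold change 0.24 ± 0.07, adjusted p = 0.0204), both by 0.08 with the share in the model, and on the TPM scale the value for Ctnnb1 was -0.01. Both genes and Ctnnd1 overlap other annotated genes.

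Ctnnd1, p120 catenin, which holds cadherins at the membrane, was the least abundant of the adherens junction. Ctnnd1 had 174, 224 and 207 CPM with dDAVP and 151, 185 and 198 CPM with vehicle at 3 h, and 246, 249.9 and 222 CPM with dDAVP and 174, 177 and 179 CPM with vehicle at 6 h. Its groups were separate at 6 h. At 12 h, Ctnnd1 had 204, 204 and 183 CPM with dDAVP and 155, 218 and 178 CPM with vehicle, and at 24 h 223, 218 and 218 CPM with dDAVP and 224, 207 and 201 CPM with vehicle. Ctnnd1 rose in the mean effect (log2 fold change 0.20 ± 0.06, adjusted p = 0.026), against -0.05 on the TPM scale.

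Among desmosomal members, Jup, Pkp2, Pkp3 and Perp were higher at 6 h, these and Dsg2 in the mean effect, and Dsp and Dsc2 were called in neither, with a lower mean TPM for all 7 in both. Jup, plakoglobin, serves both adherens junctions and desmosomes. Jup had 383, 440.5 and 435 CPM with dDAVP and 305, 373 and 425 CPM with vehicle at 3 h, and 477, 518 and 462 CPM with dDAVP and 384, 363 and 381 CPM with vehicle at 6 h. Groups were separate at 6 h. At 12 h, Jup had 443, 447 and 439 CPM with dDAVP and 356, 491 and 399 CPM with vehicle, and at 24 h 519.8, 485 and 489 CPM with dDAVP and 515, 513 and 479 CPM with vehicle. Jup rose in the mean effect by 0.16 ± 0.06 (adjusted p = 0.0466), and on the TPM scale limma called it lower (-0.12, adjusted p = 0.0263).

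Dsp, desmoplakin, binds keratin filaments to the desmosomal plaque. Dsp had 99.6, 136 and 133 CPM with dDAVP and 109.7, 135 and 149 CPM with vehicle at 3 h, and 160.0, 169 and 138 CPM with dDAVP and 134, 140.5 and 154 CPM with vehicle at 6 h. The groups overlapped at both times. At 12 h, Dsp had 180.5, 171 and 169.6 CPM with dDAVP and 154, 245 and 175 CPM with vehicle, and at 24 h 175, 205 and 185 CPM with dDAVP and 225, 211 and 204 CPM with vehicle. They overlapped at 12 h, and at 24 h 1 dDAVP library lay within the vehicle range and the others below it. The mean effect was -0.07 ± 0.07 (adjusted p = 0.409), and with the share in the model Dsp fell (log2 fold change -0.28 ± 0.04, adjusted p = 6.17e-05). In that model it was lower at each time, by -0.32 ± 0.07 at 3 h (adjusted p = 0.0151), -0.35 ± 0.08 at 6 h (adjusted p = 0.0719), -0.21 ± 0.06 at 12 h (adjusted p = 0.227) and -0.23 ± 0.06 at 24 h (adjusted p = 0.159). The value at 6 h cannot tell dDAVP from the share, which did not overlap between treatments then. The mean effect with the share in the model includes that value. The slope of Dsp on the share was -0.32 ± 0.04 (SE) on the log2 scale per doubling, beside a median of -0.24 over the members. On the TPM scale the mean effect of Dsp was -0.29 (limma, adjusted p = 0.00122). With fit and size factors from genes of at least 5 CPM the mean effect was -0.20 (adjusted p = 0.00168).

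A ratio between 2 members of a library does not depend on how the library is scaled. The ratio of Dsp to Jup, chosen after the values were seen and given without a test, was 0.291 ± 0.027 in dDAVP libraries and 0.357 ± 0.0056 in vehicle libraries at 3 h (SD, n = 3), and 0.321 ± 0.019 with dDAVP and 0.380 ± 0.029 with vehicle at 6 h. At 12 h it was 0.392 ± 0.014 with dDAVP and 0.457 ± 0.037 with vehicle, and at 24 h 0.379 ± 0.043 with dDAVP and 0.424 ± 0.013 with vehicle. All dDAVP libraries were below all vehicle libraries at 3, 6 and 12 h, and overlapped with them at 24 h.

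Dsc2, desmocollin 2, is 1 of the 2 desmosomal cadherins here and the least abundant desmosomal member. Dsc2 had 31.7, 45.5 and 40.9 CPM with dDAVP and 29.0, 38.1 and 40.4 CPM with vehicle at 3 h, and 45.5, 44.6 and 37.8 CPM with dDAVP and 36.9, 37.4 and 35.9 CPM with vehicle at 6 h. Groups overlapped at 3 h and were separate at 6 h. At 12 h, Dsc2 had 40.8, 42.4 and 35.5 CPM with dDAVP and 31.1, 45.8 and 39.6 CPM with vehicle, and at 24 h 43.4, 42.8 and 40.7 CPM with dDAVP and 44.5, 44.8 and 43.5 CPM with vehicle. At 24 h dDAVP was below vehicle throughout (log2 fold change -0.06 ± 0.14, adjusted p = 1). Its partner Dsg2 had log2 fold change 0.18 ± 0.06, adjusted p = 0.0349 in the mean effect. Perp, a tetraspan protein of desmosomes and a p53 target (log2 fold change 0.23 ± 0.06, adjusted p = 0.0205), and the plakophilins Pkp2 (log2 fold change 0.20 ± 0.06, adjusted p = 0.0272) and Pkp3 (log2 fold change 0.16 ± 0.06, adjusted p = 0.0473) rose in the mean effect, with a lower mean TPM for each and with values of 0.07, 0.03 and 0.03 with the share in the model.

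All 4 keratins were higher at 6 h, as were 46.5% of genes of at least 5 CPM. Krt8, Krt18 and Krt19 were higher in the mean effect, while at 6 h only Krt19 had a higher mean TPM. Krt19, a type I keratin of ducts and other simple epithelia, was above vehicle in every library at 3 and 6 h. Krt19 had 285, 338 and 319.9 CPM with dDAVP and 177, 232 and 248 CPM with vehicle at 3 h, and 362, 443 and 396 CPM with dDAVP and 243, 242 and 259.6 CPM with vehicle at 6 h. The lowest dDAVP library exceeded the highest vehicle library at both times. At 12 h, Krt19 had 358, 359 and 389 CPM with dDAVP and 241, 385 and 311 CPM with vehicle, and at 24 h 334, 381 and 350.2 CPM with dDAVP and 317, 355 and 304 CPM with vehicle. The groups overlapped at 12 and 24 h. Krt19 rose at 6 h (log2 fold change 0.69 ± 0.14, adjusted p = 0.00905) and in the mean effect (log2 fold change 0.39 ± 0.07, adjusted p = 0.00128), a fold of 1.31, and with the share in the model the mean effect was 0.22 ± 0.04, adjusted p = 0.00555. At 3 h its difference of 0.52 ± 0.14 passed with the share in the model (0.33 ± 0.08, adjusted p = 0.0305) and not without it (adjusted p = 0.136).

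The mean effect of Krt19 passed the threshold under all 12 alternatives (0.14 to 0.46) and in each of the 24 fits that left out a library (0.36 to 0.43). At 6 h it missed the threshold without vehicle replicate 1 (adjusted p = 0.0514), vehicle replicate 2 (adjusted p = 0.0695) or dDAVP replicate 2 (adjusted p = 0.123), and with the share in the model (0.28 ± 0.09, adjusted p = 0.422). The change in its effect with time was not called (adjusted p = 0.648). The ratio of Krt19 to Krt8, described without a test and also chosen after the values were seen, was 0.224 ± 0.0079 in dDAVP libraries and 0.181 ± 0.0036 in vehicle libraries at 3 h, and 0.229 ± 0.0059 with dDAVP and 0.197 ± 0.0086 with vehicle at 6 h (SD, n = 3). It was 0.272 with dDAVP and 0.271 with vehicle at 12 h, and 0.216 with dDAVP and 0.225 with vehicle at 24 h.

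Krt18 had 1918, 2415 and 2249.9 CPM with dDAVP and 1466, 1911 and 2147 CPM with vehicle at 3 h, and 2698, 3197 and 2811 CPM with dDAVP and 1927, 2014 and 2123 CPM with vehicle at 6 h. Krt18 was separate between treatments at 6 h alone of these times. At 12 h, Krt18 had 2199, 2142 and 2439 CPM with dDAVP and 1465, 2249 and 1809 CPM with vehicle, and at 24 h 2324, 2474 and 2427 CPM with dDAVP and 2071, 2319 and 1934 CPM with vehicle. It was separate again at 24 h, dDAVP above. Krt8 had 1324, 1475 and 1400.4 CPM with dDAVP and 974, 1256 and 1400.1 CPM with vehicle at 3 h, and 1577, 1883 and 1773 CPM with dDAVP and 1276, 1243 and 1254 CPM with vehicle at 6 h. Krt8 followed Krt18, with groups separate at 6 h. At 12 h, Krt8 had 1309.8, 1316 and 1436 CPM with dDAVP and 918, 1371 and 1150.4 CPM with vehicle, and at 24 h 1645, 1544 and 1758 CPM with dDAVP and 1414, 1549.7 and 1376 CPM with vehicle. Krt18 (log2 fold change 0.32 ± 0.08, adjusted p = 0.0172) and Krt8 (log2 fold change 0.28 ± 0.07, adjusted p = 0.0185) rose in the mean effect, against 0.13 and 0.14 with the share in the model, neither called. Both were also called higher in the mean effect with fit and size factors from genes of at least 5 CPM, and on the TPM scale Krt18 at 6 h was -0.01. Krt7, the type II keratin of ductal epithelia, rose at 6 h (log2 fold change 0.37 ± 0.15, adjusted p = 0.0478) with a lower mean TPM, and missed the threshold in the mean effect (0.17, adjusted p = 0.0700).

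**Figure D4:**
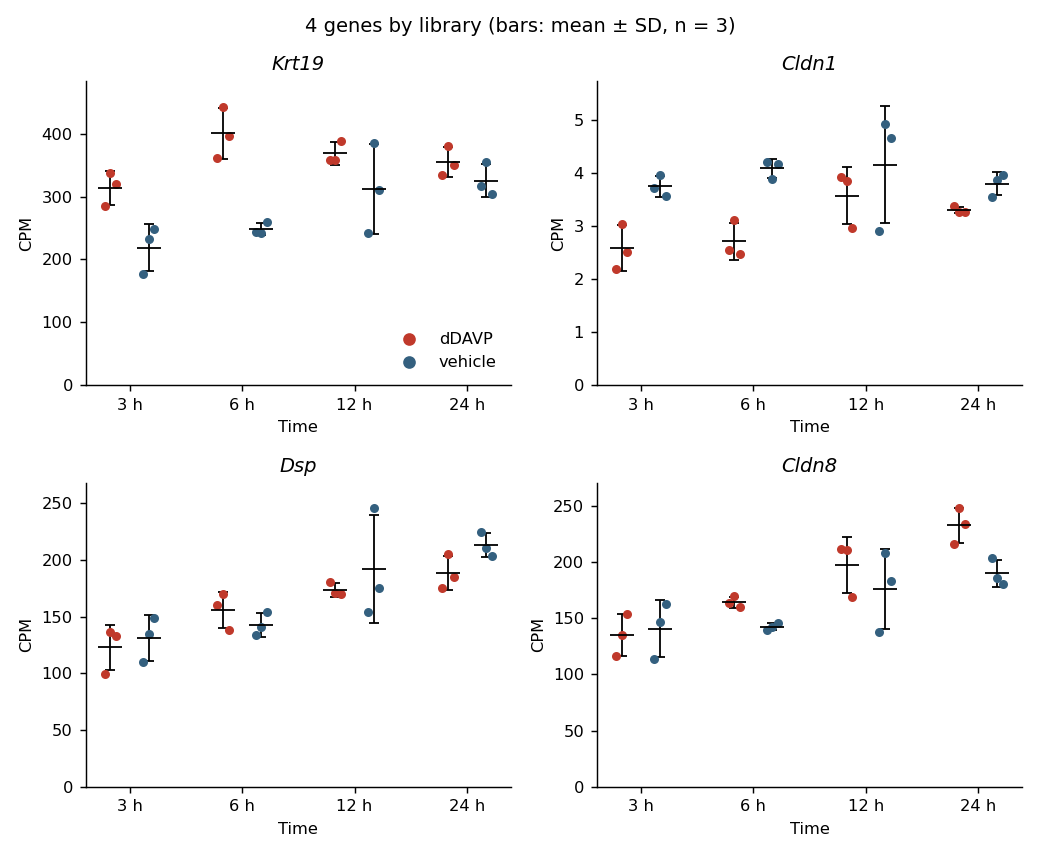
CPM of Krt19, Cldn1, Dsp and Cldn8 in each library by time, dDAVP (red) left of vehicle (blue), with mean and SD of 3 libraries. Krt19 with dDAVP lies above vehicle at 3 and 6 h, Cldn1 lies below at 3, 6 and 24 h, Dsp overlaps between treatments at each time, and Cldn8 climbs to 216, 248 and 234 CPM with dDAVP at 24 h.

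**Figure D5:**
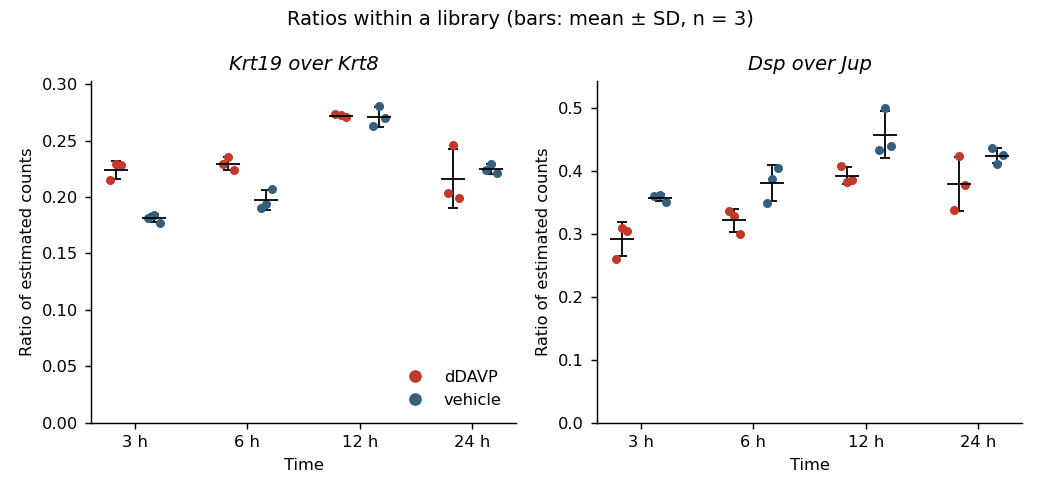
Ratio of Krt19 to Krt8 and of Dsp to Jup in each library by time, dDAVP (red) left of vehicle (blue), with mean and SD of 3 libraries. Krt19 over Krt8 is higher with dDAVP at 3 and 6 h and overlaps later, and Dsp over Jup is lower with dDAVP at 3, 6 and 12 h and overlaps at 24 h; both ratios are descriptions with no test.

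The 2 regulators, Epcam and Esrp1, were higher at 6 h, and Esrp1 in the mean effect, with a lower mean TPM for both in both. Epcam had 637, 790.0 and 758 CPM with dDAVP and 537, 627 and 729.8 CPM with vehicle at 3 h, and 844, 899.7 and 791 CPM with dDAVP and 638, 641 and 699 CPM with vehicle at 6 h. Groups were separate at 6 h. At 12 h, Epcam had 755, 755 and 758 CPM with dDAVP and 591, 870.0 and 720.2 CPM with vehicle, and at 24 h 789, 939 and 831 CPM with dDAVP and 864, 856 and 771 CPM with vehicle. Epcam had log2 fold change 0.17 ± 0.07, adjusted p = 0.0608 in the mean effect. Esrp1 encodes an RNA-binding protein that directs epithelial splicing. Esrp1 had 56.3, 73.0 and 66.4 CPM with dDAVP and 46.4, 50.3 and 57.5 CPM with vehicle at 3 h, and 77.7, 70.2 and 64.9 CPM with dDAVP and 51.4, 52.4 and 57.8 CPM with vehicle at 6 h. At 3 h 1 vehicle library reached into the dDAVP range, and at 6 h none did. At 12 h, Esrp1 had 57.6, 60.1 and 56.4 CPM with dDAVP and 45.8, 66.7 and 56.6 CPM with vehicle, and at 24 h 66.5, 65.2 and 65.8 CPM with dDAVP and 68.0, 67.2 and 61.0 CPM with vehicle. Esrp1 rose in the mean effect (log2 fold change 0.20 ± 0.06, adjusted p = 0.0243), against -0.04 on the TPM scale and 0.05 with the share in the model.

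With time in culture, 3 members were higher at 24 h than at 3 h in dDAVP cells, Cldn8, Tjp3 and Dsp (1.30% of genes), with a median log2 fold change of 0.25 over the members that was 0.03 on the TPM scale. In vehicle cells 26 members were higher at 24 h and none lower on TMM-scaled counts, with a median of 0.39 that was -0.07 on the TPM scale (38.0% of genes in either direction, 40.6% of genes of at least 5 CPM higher). On TPM rescaled without Gm24245 the median in vehicle cells was 0.10, with 29 members above 0 and 8 below. On log2(TPM + 1), limma called Cdh16, Dsp and Krt19 higher and 6 members lower in vehicle cells, Ctnnd1, Pkp2, Perp, Krt7, Krt8 and Krt18 (41.5% of genes). Whether the change from 3 to 24 h differed between treatments was not tested on its own. The test of dependence on time, a joint test over the 4 times, called no member. The 26 comprised 4 claudins, 4 of 4 other tight junction membrane proteins, 4 of 4 scaffolds, 3 of 5 polarity genes, 4 of 5 adherens junction genes, 4 of 7 desmosomal genes, 1 of 4 keratins (Krt19) and both regulators. The receptor share was lower in all libraries at 24 h than in all libraries at 3 h under both treatments.

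With the share in the model, Cldn8, Dsp, F11r and Tjp3 were higher at 24 h in dDAVP cells (4.01% of genes), and Tjp3 and Cdh16 in vehicle cells (0.693% of genes). Because the share did not overlap between 3 and 24 h under either treatment, the model with the share cannot tell time from the share here. Leaving out 1 library gave 0 calls in dDAVP cells without the 3 h replicate 1, 1 without the 24 h replicate 1 and 2 without any other. These fits called 83 to 225 of all genes, against 386 with all libraries. In vehicle cells leaving out 1 library gave 2 to 30 calls, with 2 without the 3 h replicate 1, 7 without the 24 h replicate 2, 8 without the 24 h replicate 1 and 15 without the 3 h replicate 2. Over all genes 443 to 15327 were called in these fits, against 11312 with all libraries. A fit of genes of at least 5 CPM alone, with size factors from those genes, gave 12 calls in dDAVP cells, all higher (14.0% of those genes), and 15 in vehicle cells, 14 higher and Perp lower (37.1% of those genes). The parts of the filter and of the size factors in this were not tested.

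Cdh16 was not called at 24 h against 3 h in dDAVP cells (log2 fold change 0.43 ± 0.13, adjusted p = 0.103). In vehicle cells it rose (log2 fold change 0.72 ± 0.13, adjusted p = 0.00201), under all 13 alternatives, in each of the 6 fits that left out a library, and with the share in the model (0.38 ± 0.08, adjusted p = 0.0193). The last value cannot tell time from the share. Tjp3 rose in dDAVP cells (log2 fold change 0.57 ± 0.12, adjusted p = 0.0122) and in vehicle cells (log2 fold change 0.70 ± 0.12, adjusted p = 0.00109), the call in dDAVP cells being lost without dDAVP 3 h replicate 1 (adjusted p = 0.156) or dDAVP 24 h replicate 1 (adjusted p = 0.0800).

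Cldn8 rose with time in dDAVP cells (log2 fold change 0.78 ± 0.14, adjusted p = 0.0039), with all 3 libraries at 24 h above all 3 at 3 h. The call held under all 13 alternatives, with the share in the model (0.59 ± 0.10, adjusted p = 0.00143), and without 5 of the 6 libraries, the exception being dDAVP 3 h replicate 1 (0.69, adjusted p = 0.069). In vehicle cells its value was log2 fold change 0.43 ± 0.14, adjusted p = 0.0238, and with the share in the model 0.11 ± 0.12, adjusted p = 0.841. Neither value with the share in the model can tell time from the share. Dsp rose in dDAVP cells (log2 fold change 0.62 ± 0.15, adjusted p = 0.033) and in vehicle cells (log2 fold change 0.70 ± 0.15, adjusted p = 0.00442), the call in dDAVP cells being lost in each of the 6 fits that left out a library. F11r rose in vehicle cells (log2 fold change 0.56 ± 0.12, adjusted p = 0.00552) and lost its call without vehicle 3 h replicate 1 (adjusted p = 0.0635).

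Other genes of the same structures, 113 that were tested and are not members, gave a setting for these counts. At 6 h, 40 were higher with dDAVP and 12 lower, where 38.1% of all genes were called, and with the share in the model 0 were called (0.336% of genes), with an unadjusted p under 0.05 for 13. In the mean effect 30 were higher and 10 lower, where 33.1% of all genes were called, and with the share in the model 5 were higher and 1 lower (1.22% of genes). By list, the mean effect called 1 of 9 other claudins higher (Cldn2) and 1 lower (Cldn15), 5 of 17 other tight junction genes higher and 2 lower, and 8 of 22 polarity genes higher and 1 lower. It called 3 of 19 other adherens junction genes higher and 1 lower, 3 of 14 desmosomal and hemidesmosomal genes higher and 2 lower, and 1 of 11 other keratins higher (Krt23). It called 8 of 12 epithelial transcription and splicing factors higher and none lower, and 1 of 9 mesenchymal genes higher (S100a4) and 3 lower (Zeb1, Zeb2 and Acta2). With the share in the model it called 2 of the 12 epithelial factors, Elf3 and Rbm47, both higher, and 0 of the 9 mesenchymal genes, of which 1 had an unadjusted p under 0.05.

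Of the 6 called in the mean effect with the share in the model, 3 also rose on the TPM scale. Marveld1, a MARVEL-domain protein, rose in the mean effect by 0.63 (adjusted p = 3.49e-06), by 0.49 with the share in the model (adjusted p = 6.8e-05) and by 0.31 on the TPM scale (limma, adjusted p = 0.00179). Krt23, a type I keratin, rose by 0.59 (adjusted p = 0.00121), by 0.43 with the share in the model (adjusted p = 0.0211) and by 0.24 on the TPM scale (limma, adjusted p = 0.0234). Elf3, an epithelial ETS factor, rose by 0.36 (adjusted p = 0.0011), by 0.21 with the share in the model (adjusted p = 0.00463) and by 0.10 on the TPM scale (limma, adjusted p = 0.0296). The other 3 did not. Rbm47, an RNA-binding splicing factor, rose by 0.31 (adjusted p = 0.00152) and by 0.18 with the share in the model (adjusted p = 0.0129), and its value on the TPM scale was 0.03 (limma, adjusted p = 0.584). Cldn2, the cation channel claudin, rose by 0.67 (adjusted p = 0.0101) and by 0.63 with the share (adjusted p = 0.0442), with 0.05 on the TPM scale (limma, adjusted p = 0.621) and a mean level of 0.572 TPM. Cldn9 had -0.01 (adjusted p = 0.927), and it was called lower with the share (-0.21, adjusted p = 0.0129) and on the TPM scale (-0.26, limma, adjusted p = 0.000851). Zeb1 and Zeb2, repressors of E-cadherin, had -0.73 and -0.60 (adjusted p = 0.0241 and 0.0193), and -0.06 and -0.05 with the share in the model, neither called. Their mean levels were low, 0.770 TPM for Zeb1 and 1.64 TPM for Zeb2.

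Annotation limits some of these values. In GENCODE M21, 16 of the 37 members share bases with another annotated gene, and the sources used here do not state that counting used strand, so reads of overlapping genes cannot be told apart. Among those called in the mean effect are Tjp3 (with Apba3), Crb3 (with Slc25a23 and Dennd1c), Ctnnb1 (with Ulk4), Ctnna1 (with Lrrtm2) and Ctnnd1 (with Gm28635, a coding gene on the same strand). Krt8 has an annotated processed copy, Krt8-ps, between which and Krt8 reads may be divided.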

How the data were processed

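RNA-seq of 24 mpkCCD libraries was analysed, 3 in each of 8 groups of treatment and time. The deposited tables hold estimated counts, not normalized, and TPM per Ensembl gene, both made by the authors from the reads. The submitters' processing notes list Salmon 0.14.10 and the build GRCm38.p6; settings and the use of strand are not stated in the sources used here. Libraries held 17.25 M to 27.64 M counts. Every column was matched to its label.

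Estimated counts were rounded to whole numbers, scaled by TMM (factors 0.814 to 1.33) and filtered with filterByExpr, which kept 29743 of 54432 genes. edgeR 4.0.16 (limma 3.58.1, R 4.3.3) fitted 1 mean per group to all 24 libraries, tested genes with the quasi-likelihood F test and adjusted p by Benjamini-Hochberg over all genes tested, with a threshold of 0.05. Values after ± are SE of a log2 fold change unless SD is stated. CPM of members are counts scaled to a common library total after TMM correction. The cut of 5 CPM used group means of counts scaled by library totals alone. A second fit had the log2 share of sensory receptor genes as a covariate. The test was also run on simulated counts with known changes. These counts varied independently between genes, with no receptor share that moved many genes together. The run therefore cannot show how the test behaves on such data. Alternatives used DESeq2 1.42.0, limma on log2(TPM + 1) and log2(TPM + 0.1), other filters, other size factors, a replicate block and libraries left out. The deposited values carry the authors' normalization in TPM, where 1 gene holds a large part of the total.

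Names came from GENCODE M21 by identifier, and promoter sequence from RefSeq. Members, gene lists and comparisons were chosen with earlier results of these data known. Values in every library are given for members called both with and without the receptor share, those with the 4 smallest p in the mean effect, in the dependence on time and in vehicle cells over time, the highest and lowest by TPM in each role, and those whose treatments were separate at 3 or more times. Cldn8 was added after its values were seen.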

Additional observations from a re-analysis of the deposited data

Results flagged for a closer look

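Each result below has all dDAVP libraries on 1 side of all vehicle libraries at 1 time and on the other side at another. The difference between the 2 times was not tested as a pair, and the test of dependence on all 4 times is given beside it. Pard6b had a log2 fold change of 0.68 at 6 h and -0.51 at 12 h (adjusted p for dependence on time = 0.196). Cldn3 had 0.40 at 6 h and -0.12 at 24 h (adjusted p = 0.66), and Cdh16 had 0.38 at 6 h and -0.11 at 24 h (adjusted p = 0.66). Dsc2 had 0.22 at 6 h and -0.06 at 24 h (adjusted p = 0.80). The receptor share was lower in all dDAVP libraries than in all vehicle libraries at 6 h and overlapped at 12 and 24 h. Groups of 3 libraries are too small for a test of single outlying libraries.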

How the results depend on the processing

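Counts of called members depended on scaling, on the filter and on the receptor share, and the cause was not tested except where it is stated. Over all genes, 11320 were called at 6 h by the fit reported and 7908 with median-of-ratios factors. The number was 4932 with no filter, 2500 in the fit of genes of at least 5 CPM and 100 with the receptor share. Among members, median-of-ratios factors gave 15 calls at 6 h (29 by the fit reported), 11 in the mean effect (22) and 1 in dDAVP cells at 24 h against 3 h (3). No filter gave 5, 7 and 1 in the same order. A fit of genes of at least 5 CPM alone, which drops Cldn1, tests fewer genes and also takes the size factors from these genes, gave 1 at 3 h, 4 at 6 h, 8 in the mean effect, 12 in dDAVP cells and 15 in vehicle cells over time (26) and 10 for the slope on the receptor share (36). Adding the receptor share to the model gave 2 at 3 h, 0 at 6 h, 3 in the mean effect and 2 in vehicle cells over time. With that share and the fit of genes of at least 5 CPM together there were 2 at 3 h, 1 at 6 h, 2 at 12 h, 1 at 24 h, 2 in the mean effect, 11 in dDAVP cells and 6 in vehicle cells over time.

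limma on log2(TPM + 1) gave 1 at 3 h, 7 at 6 h (1 higher and 6 lower, against 28 and 1 by the fit reported), 15 in the mean effect (2 higher and 13 lower, against 21 and 1) and 9 in vehicle cells over time (3 higher and 6 lower, against 26 and 0). On log2(TPM + 0.1) it gave 1, 8 (1 higher and 7 lower), 15 (2 and 13) and 7 (2 and 5). On TPM rescaled without Gm24245, an alternative chosen after seeing the data, it gave 1 at 3 h, 2 at 6 h (1 higher and 1 lower), 6 in the mean effect (3 and 3), 5 in dDAVP cells and 9 in vehicle cells over time (8 and 1). A threshold of 0.01 gave 1 at 6 h, 1 in the mean effect, 1 in dDAVP cells and 8 in vehicle cells over time. Without the 2 libraries of highest receptor share (vehicle replicate 1 at 3 h and at 12 h), also chosen after seeing the data, there were 4 in the mean effect, 1 for dependence on time, 10 in dDAVP cells and 9 in vehicle cells over time. Fitting only the libraries compared gave 12 in dDAVP cells over time. DESeq2 gave 24 at 6 h, 20 in the mean effect and 26 in vehicle cells over time.

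Leaving out 1 library in turn gave 0 to 0 calls at 3, 12 and 24 h and for dependence on time, 0 to 9 at 6 h, 2 to 30 in the mean effect, 0 to 2 in dDAVP cells and 2 to 30 in vehicle cells over time, and 35 to 37 for the slope on the receptor share. Calls over all genes moved too, from 84 to 9333 at 6 h (11320 with all libraries) and from 1227 to 16748 in the mean effect (9854).

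With the replicate number as a replicate block there was 1 call at 3 h, 32 at 6 h, 25 in the mean effect, 4 in dDAVP cells and 27 in vehicle cells over time. Whether the numbers pair the libraries could not be settled from correlations, which spread widely. Same-numbered libraries had a median correlation of 0.0084 (-0.69 to 0.79), over 0.1 in 35 of 84 pairs. Libraries of different number had a median of -0.024 (-0.80 to 0.82), over 0.1 in 64 of 168 pairs. Of the 24 libraries, 10 correlated best with their own number.

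On log2(TPM + 1), these mean effects were below 0 and not above it: Cldn7 -0.0515, F11r -0.072, Tjp3 -0.11, Cgnl1 -0.17, Pard3 -0.15, Pard6b -0.23, Patj -0.12, Crb3 -0.00853, Cdh16 -0.13, Ctnnb1 -0.0057, Ctnnd1 -0.0475, Jup -0.12, Dsc2 -0.16, Epcam -0.086 and Esrp1 -0.0443. On log2(TPM + 0.1) they were Cldn7 -0.0517, F11r -0.0731, Tjp3 -0.11, Cgnl1 -0.19, Pard3 -0.16, Pard6b -0.25, Patj -0.12, Crb3 -0.0087, Cdh16 -0.13, Ctnnb1 -0.00581, Ctnnd1 -0.0494, Jup -0.12, Dsc2 -0.19, Epcam -0.0863 and Esrp1 -0.0487. On rescaled TPM they were Tjp3 -0.0316, Cgnl1 -0.11, Patj -0.0469 and Jup -0.0426. These lists hold only members given with values in every library and called in at least 1 of the fits compared. Of all 37 members, 34 had a mean effect below 0 on log2(TPM + 1) and 21 on rescaled TPM. By the fit reported, 2 did. With the receptor share and the fit of genes of at least 5 CPM, the mean effect of Cldn7 was -0.0152 and Dsp at 6 h was -0.39. On log2(TPM + 1) and log2(TPM + 0.1), Dsp at 6 h was -0.36 and -0.39, and Krt18 at 6 h was -0.0128 and -0.0129.

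With 3 libraries per group, single comparisons rest on a spread shared across all 24 libraries, which was wide without the receptor share (common biological coefficient of variation 0.191) and narrower with it (0.0797). Cldn1 rests on 49 to 97 counts per library.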

Other observations

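Some genes of the same structures that are not members were called with time in dDAVP cells. At 24 h against 3 h, in the model that holds the receptor share, 5 of the 113 were higher and 2 lower, where 4.01% of all genes were called in either direction, and the 7 were Cldn9, Cldn23, Crb2, Scrib, Ajuba, Itga6 and Krt23. That model cannot tell time from the share, which was lower in all libraries at 24 h than in all at 3 h. Krt23, a type I keratin, rose by 1.19 in dDAVP cells (adjusted p = 0.00293, edgeR) and by 0.97 with the share in the model (adjusted p = 0.00169), against 0.20 in vehicle cells (adjusted p = 0.428). Cldn9 rose by 0.72 in dDAVP cells (adjusted p = 0.0108) and by 0.91 in vehicle cells (adjusted p = 0.000708). The difference between treatments in this change was not tested on its own. The joint test of dependence on time over the 4 times called neither gene (adjusted p = 0.543 for Krt23 and 0.66 for Cldn9).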
